A study of Homo sapiens with 15 samples.

Results

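The genes described here are 9 enzymes that make serine and pass its carbon into the folate cycle, in human astrocytes induced to express mutant IDH1. They were taken by name from the pathway, with earlier results of these data known, so their counts are not independent evidence. All 9 are among the 16324 genes listed in at least 1 of the 2 deposited count tables. PHGDH, PSAT1 and PSPH form the route from glycolysis to serine. SHMT2, MTHFD2, MTHFD1L and ALDH1L2 work in the mitochondrion, and SHMT1 and MTHFD1 are their counterparts in the cytosol.

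The cells were immortalized human astrocytes (IHA), a fetal line carrying SV40. Doxycycline at 1 ug/ml switched on mutant IDH1, which the series names as IDH1-R132H, a form of the enzyme that makes 2-hydroxyglutarate. The labels give the genotype as wild-type IDH1 for every sample, and they do not name the promoter or say whether the line is a single clone. Messenger RNA was counted with a bulk form of MARS-seq, which reads transcripts near their 3′ end and counts unique molecular identifiers (UMIs), so that copies of 1 molecule count once. Of the 15 samples, 6 had no doxycycline (3 tagged b1 and 3 tagged b2), 4 were taken at day 3 (all b2) and 5 at day 7 (1 of b1 and 4 of b2). The tags b1 and b2 are called batches here, although the labels do not say what they stand for. No group analysed here had doxycycline without the inducible gene, so an effect of the drug and an effect of mutant IDH1 cannot be told apart. The labels do not say that replicates were separate cultures, and p-values then measure only the spread between these libraries, which may be technical.

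Serine synthesis starts from 3-phosphoglycerate. PHGDH oxidises it, PSAT1 adds an amino group from glutamate, and PSPH removes the phosphate to give serine. SHMT1 and SHMT2 split serine into glycine and a one-carbon unit on tetrahydrofolate. In the mitochondrion MTHFD2 oxidises that unit, MTHFD1L releases it as formate and ALDH1L2 burns it to carbon dioxide while making NADPH. MTHFD1 takes up formate in the cytosol for purine and thymidylate synthesis. In brain, astrocytes are a main source of the serine that neurons use, and several of these genes are known targets of ATF4, the transcription factor of the amino acid response.

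The 2 tables were tested separately. The day 7 table holds 11 libraries of both batches with 2573290 to 5567651 UMIs each, and the table with day 3 holds 11 b2 libraries with 1816599 to 4656705. All 9 enzymes passed the filter on low counts in both tables. The tables hold 7 libraries in common, so their day 7 values are not independent. Over the genes listed in both, the 2 sets of log2 counts of a shared library had a Pearson r of 0.869 to 0.887. Levels are given as CPM, UMI counts scaled to a common library total with TMM factors, and changes as log2 fold changes from edgeR with standard errors (SE). A gene was called changed at an adjusted p under 0.05 over all genes tested. IDH1 was 28.1 to 38.3 CPM in untreated b2, 35.1 to 44.6 CPM at day 3 and 30.2 to 43.2 CPM at day 7 in the table with day 3. It was not called at day 3 (log2 change 0.21 ± 0.14, adjusted p = 0.494) or at day 7 in the day 7 table (0.22 ± 0.11, adjusted p = 0.178). These counts do not separate the mutant from the cell's own transcript, so they do not check the induction.

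Sequence upstream of a listed transcript start is shown for 3 enzymes. PSAT1 had the clearest fall, SHMT1 was not called, and MTHFD1L alone of the 6 with a promoter entry held a match to the amino acid response element. Capitals mark matches on either strand to the CCAAT box, to the E-box (CACGTG) or to the response element (TGATGNAAN), and all sequences read 5′ to 3′ on the gene's strand from RefSeq, build GRCh38.p14. The first 2 run from -200 to -41 relative to the transcript start (PSAT1 at chr9:78296925-78297084 on the plus strand, SHMT1 at chr17:18363591-18363750 on the minus strand). The third is a site of 30 bases at chr6:150866346-150866375 on the plus strand, from -140 to -111 of the first of 4 listed MTHFD1L starts. It lies inside the annotated span of the gene, which begins at 150865549.
PSAT1: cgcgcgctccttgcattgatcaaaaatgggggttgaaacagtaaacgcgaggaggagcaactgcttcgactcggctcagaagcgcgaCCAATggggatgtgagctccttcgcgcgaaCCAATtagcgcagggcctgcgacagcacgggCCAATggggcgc
SHMT1: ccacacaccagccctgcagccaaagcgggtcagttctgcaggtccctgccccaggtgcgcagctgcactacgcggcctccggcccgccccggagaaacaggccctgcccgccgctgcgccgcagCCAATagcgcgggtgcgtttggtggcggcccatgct
MTHFD1L: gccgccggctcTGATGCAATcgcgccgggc
Promoter entries of 300 bases were found for 6 of the 9 enzymes: PHGDH, PSAT1, SHMT1, MTHFD1, MTHFD1L and MTHFD2. TGATGNAAN, the form of the element that ATF4 and C/EBP proteins bind together, was in 3.61% of 35116 promoters and in 1 of the 6. CACGTG, the E-box that MYC binds, was in 7.26% of all promoters and in MTHFD1L and MTHFD1. CCAAT, the box that NF-Y binds, was in 34.6% of all promoters and in all 6 enzymes. PSAT1 held 3 copies, at -113, -83 and -52, and 3 or more copies were in 3.26% of all promoters. These motifs do not overlap one another in the stretches shown. A match describes the letters only, and the absence of a match says no more than that the letters are not in this window.

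By day 3 in b2, all 3 enzymes of serine synthesis had fallen. Across the 9 enzymes, 7 were called lower and 0 higher at day 3, where 1.67% of all 10586 genes tested were called lower and 1.84% higher. Their median log2 change was -0.60, beside 0.00497 over all genes. In bulk RNA, fewer cells expressing a gene and less of its RNA in each cell cannot be told apart.

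PSAT1, the aminotransferase (chromosome 9, 78297143 to 78330093, plus strand, on GRCh38), was 191, 215 and 194 CPM in the untreated b2 libraries. It was 67.6, 64.0, 60.8 and 61.2 CPM at day 3 and 61.3, 66.0, 65.8 and 75.0 CPM at day 7. Every treated library lay below every untreated one, and the day 3 and day 7 ranges overlapped. The fall at day 3 was 3.17-fold (log2 change -1.66 ± 0.09 SE, adjusted p = 5.61e-14), which ranked 1 of 10586 genes by p. At day 7 it was 2.98-fold (-1.58 ± 0.08, adjusted p = 1.85e-14).

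PHGDH, the first enzyme of the route (chromosome 1, 119648411 to 119744226, plus strand), was 421, 405 and 411 CPM without doxycycline. The day 3 libraries had 258, 234, 241 and 257 CPM, and the day 7 libraries 257, 224, 223 and 226 CPM. The untreated libraries stood apart from all others, while day 3 and day 7 overlapped. The fall was 1.67-fold at day 3 (log2 change -0.74 ± 0.07, adjusted p = 2.58e-08) and 1.77-fold at day 7 (-0.83 ± 0.07, adjusted p = 4.71e-10).

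PSPH, the phosphatase of the last step (chromosome 7, 56011051 to 56051604, minus strand), was lower in level but moved alike. Its untreated values were 36.3, 35.4 and 40.0 CPM, against 22.5, 20.8, 19.8 and 26.9 CPM at day 3 and 22.1, 23.3, 24.2 and 25.3 CPM at day 7. Treated and untreated libraries did not overlap. The log2 change was -0.71 ± 0.13 at day 3 (adjusted p = 0.00155) and -0.64 ± 0.12 at day 7 (adjusted p = 0.000581). PSAT1 has 4 annotated pseudogenes and PSPH has 1 (PSPHP1), and reads shared with such copies could be counted to either.

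The folate enzymes of the mitochondrion fell by unequal amounts. SHMT2, which makes glycine and the one-carbon unit (chromosome 12, 57229327 to 57234935, plus strand), was 221, 231 and 238 CPM in untreated b2. It was 170.1, 159.7, 165 and 170.6 CPM at day 3, and 135, 159, 134 and 145 CPM at day 7. The 3 groups did not overlap: each day 7 library lay below each day 3 library. SHMT2 fell at day 3 (log2 change -0.47 ± 0.07, adjusted p = 0.000212) and at day 7 (-0.68 ± 0.07, adjusted p = 7.81e-08).

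MTHFD2, the dehydrogenase and cyclohydrolase (chromosome 2, 74198562 to 74217565, plus strand), was 162, 165 and 160.0 CPM without doxycycline. It was 112, 108, 106 and 105 CPM at day 3 and 99.6, 107, 124.1 and 124.0 CPM at day 7. The untreated libraries were the highest, and the day 7 libraries spread more widely than those of day 3. The log2 change was -0.60 ± 0.08 at day 3 (adjusted p = 3.08e-05) and -0.51 ± 0.08 at day 7 (adjusted p = 4.44e-05). MTHFD2 has 7 annotated pseudogenes, and its reads are uncertain to that extent.

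ALDH1L2, the dehydrogenase that oxidises formyltetrahydrofolate (chromosome 12, 105019784 to 105084577, minus strand), had the largest fold change of the 9 and the lowest counts. Untreated b2 libraries had 10.7, 14.03 and 8.26 CPM. The day 3 libraries had 3.94, 0.73, 2.70 and 2.76 CPM, which rest on 2 to 7 UMIs each, and those of day 7 had 2.92, 2.78, 2.97 and 2.61 CPM. All 8 treated libraries lay below the lowest untreated one. The log2 change was -2.23 ± 0.32 at day 3 (adjusted p = 5.62e-05) and -2.0 ± 0.28 at day 7 (adjusted p = 9.21e-06).

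MTHFD1L, the formate-releasing ligase (chromosome 6, 150865549 to 151101887, plus strand), moved least in this compartment. It was 129.98, 129 and 129.6 CPM untreated, 98.01, 98.3, 118 and 112 CPM at day 3 and 117, 90.0, 104 and 103 CPM at day 7. Treated libraries did not overlap the untreated ones. The day 3 difference was not called (log2 change -0.28 ± 0.09, adjusted p = 0.0816, 95% interval -0.47 to -0.10), and without day 7 replicate 17, which shares the fit, it was (adjusted p = 0.0281). At day 7 in b2 MTHFD1L fell (-0.32 ± 0.09, adjusted p = 0.0103).

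**Figure D1:**
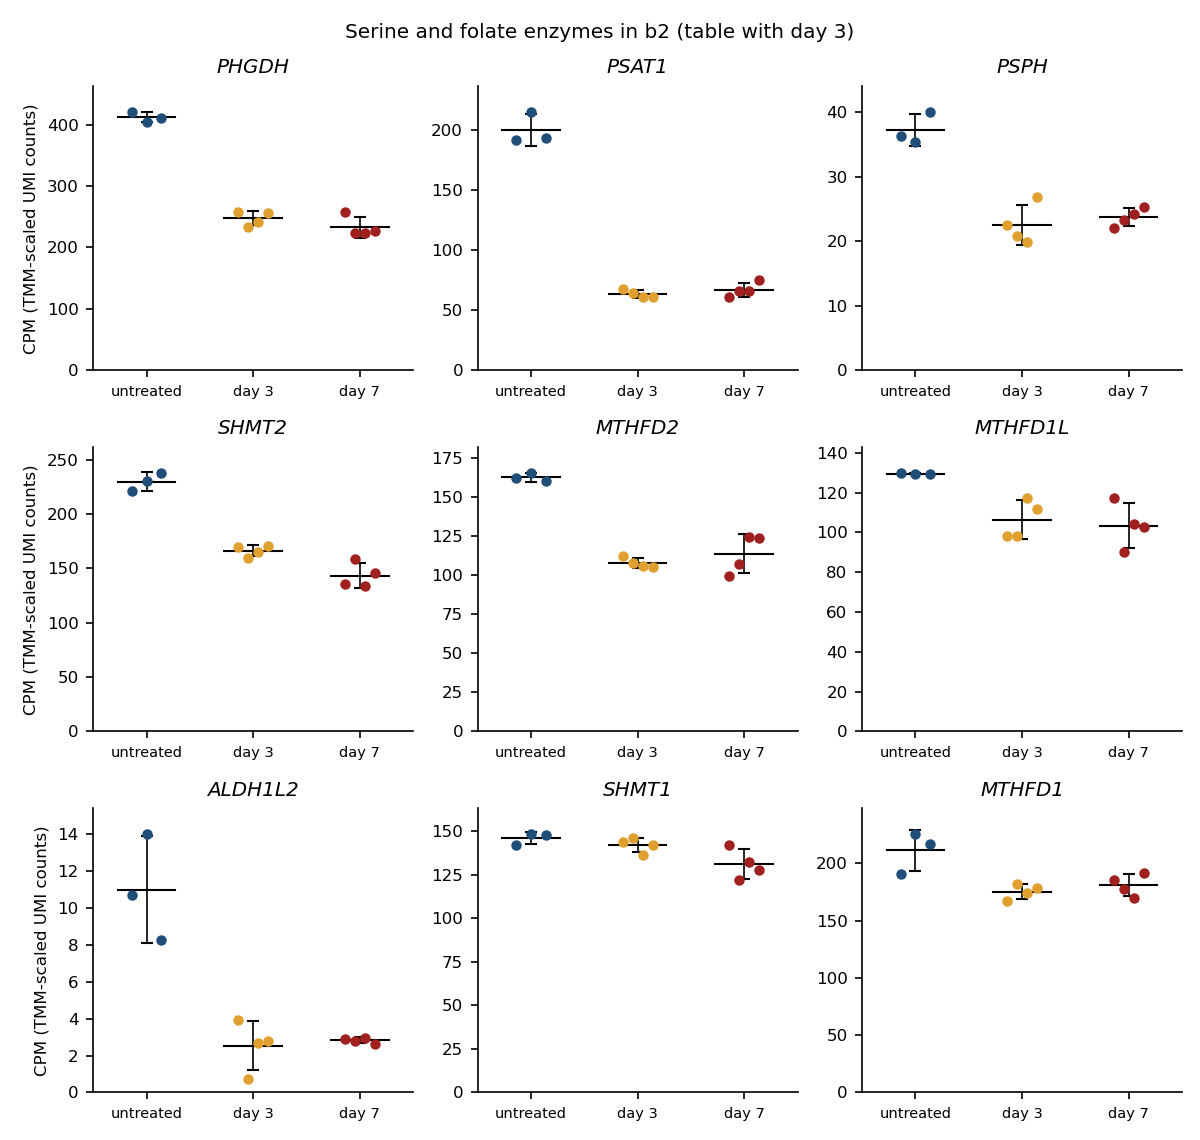
Level of each enzyme in every b2 library of the table with day 3, in CPM on a linear axis from 0, for 3 untreated, 4 day 3 and 4 day 7 libraries. Points are libraries, horizontal lines group means and bars ± 1 SD; PSAT1 falls from 191 to 215 CPM to 60.8 to 67.6 CPM at day 3, while the SHMT1 groups overlap.

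Of the 2 cytosolic enzymes, SHMT1 was not called, while the log2 change of MTHFD1 at day 3 was -0.27, near the -0.28 of MTHFD1L. SHMT1, the cytosolic serine hydroxymethyltransferase (chromosome 17, 18327860 to 18363563, minus strand), was 142, 148 and 147 CPM untreated, 144, 146, 136 and 142 CPM at day 3 and 142, 122, 132 and 127 CPM at day 7. The groups overlapped. SHMT1 was not called at day 3 (log2 change -0.04 ± 0.08, adjusted p = 0.861), where its 95% interval of -0.19 to 0.12 does not reach the change of SHMT2. Nor was it called at day 7 in b2 (-0.16 ± 0.07, adjusted p = 0.169), with an interval of -0.31 to -0.0028.

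MTHFD1, the cytosolic trifunctional enzyme (chromosome 14, 64388031 to 64463457, plus strand), was 191, 226 and 217 CPM untreated, 167, 182, 174 and 178 CPM at day 3 and 185, 177, 170.0 and 192 CPM at day 7. The lowest untreated library overlapped the day 7 range but not that of day 3. It was called at day 3 (log2 change -0.27 ± 0.08, adjusted p = 0.0432) and at day 7 in b2 (-0.22 ± 0.07, adjusted p = 0.0374). At day 3 the call was lost when any of 7 of the 11 libraries was left out: untreated replicates 2 and 4, all 4 day 3 libraries, or day 7 replicate 18 (adjusted p 0.0535 to 0.241). At day 7 it was lost without untreated replicate 2 or 4 or day 7 replicate 18 or 19 (0.0786 to 0.215). The day 3 call was also lost in DESeq2 (adjusted p = 0.0742) and limma-voom (0.0568), and the day 7 call in DESeq2 (0.0546). In the authors' deposited table the adjusted p of MTHFD1 is 0.0975 for day 3 and 0.0727 for day 7 in b2.

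Counts of SHMT2 and SHMT1 from the same library give a ratio that no scaling between libraries can alter. The ratio of their UMIs was 1.58 ± 0.0334 (SD, n = 3) untreated, 1.17 ± 0.0520 (SD, n = 4) at day 3 and 1.102 ± 0.155 (SD, n = 4) at day 7. Both treated groups lay below the untreated range of 1.55 to 1.61. The ratio shows that the transcripts changed unequally, and as a count of 3′ tags it does not say which is the more abundant. The same was measured for PSAT1 over PHGDH, which was 0.485 ± 0.0403 (SD, n = 3) untreated, 0.256 ± 0.0149 (SD, n = 4) at day 3 and 0.290 ± 0.0384 (SD, n = 4) at day 7. For MTHFD2 over MTHFD1 the values were 0.774 ± 0.0664, 0.616 ± 0.0386 and 0.630 ± 0.0802 (SD), with no overlap between treated and untreated libraries.

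**Figure D2:**
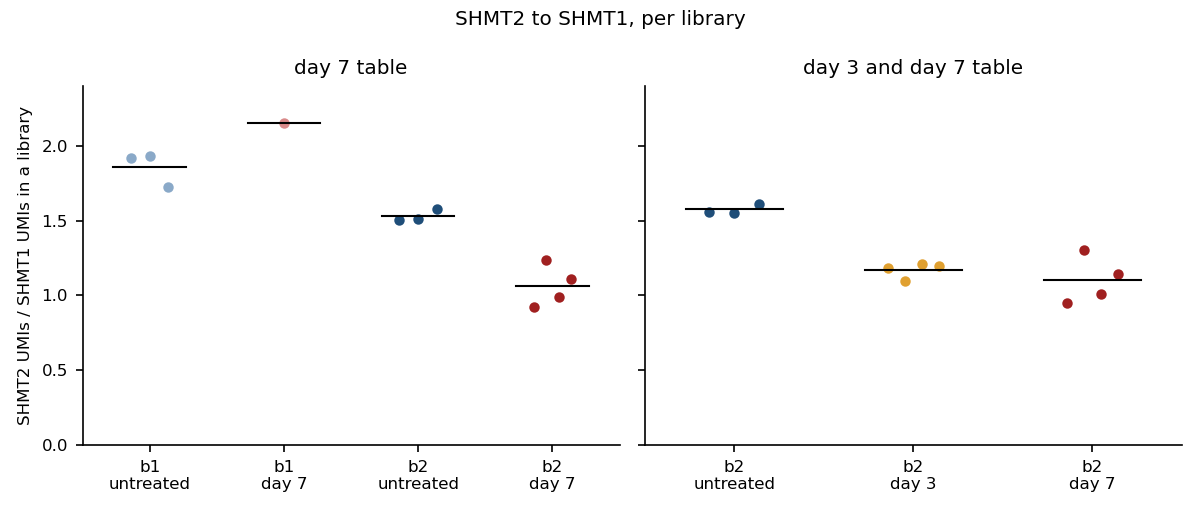
Ratio of SHMT2 to SHMT1 UMIs in each library, on a linear axis from 0, in the day 7 table (left) and the table with day 3 (right); points are libraries and lines group means. In b2 the treated libraries lie below the untreated ones, and in b1 the single day 7 library, at 2.15, lies above the untreated range of 1.73 to 1.93.

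From day 3 to day 7 none of the 9 enzymes was called in either direction by edgeR, DESeq2 or limma-voom, and 1 had an unadjusted p under 0.05 in edgeR. Among all genes 2.31% were called lower and 2.76% higher between those days. The 1 enzyme was SHMT2, with a log2 change of -0.22 ± 0.07 (adjusted p = 0.0741, 95% interval -0.36 to -0.07). It was called when day 7 replicate 18, the highest of its group, was left out (adjusted p = 0.0357). For PSAT1 the day 7 minus day 3 change was 0.09 with an interval of -0.09 to 0.27, and for PHGDH it was -0.09 with an interval of -0.22 to 0.04. The interval of ALDH1L2 ran from -0.57 to 1.05, so its counts allow changes of either sign. The day 3 and day 7 comparisons share their untreated libraries, and their values are set side by side without a measure of likeness. At day 7 in b2, 8 of the 9 were called lower in the table with day 3, where 7.31% of all genes were called lower and 8.27% higher.

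The day 7 table adds batch b1. Fitted over both batches with batch as a term, 7 of the 9 enzymes were called lower and 0 higher, where 7.28% of 12449 genes were called lower and 8.43% higher. The 7 were ALDH1L2, PSAT1, PHGDH, MTHFD2, SHMT2, PSPH and MTHFD1. Their log2 changes were -1.87 ± 0.23 for ALDH1L2 (adjusted p = 4.69e-06), -1.17 ± 0.24 for PSAT1 (0.0118) and -0.57 ± 0.11 for PHGDH (0.00416). MTHFD2 changed by -0.42 ± 0.09 (0.00192), SHMT2 by -0.41 ± 0.11 (0.0174), PSPH by -0.39 ± 0.12 (0.0301) and MTHFD1 by -0.21 ± 0.07 (0.0396). MTHFD1L (-0.22 ± 0.08, 0.0646) and SHMT1 (-0.12 ± 0.07, 0.274) were not called. The count was 4 without untreated b2 replicate 2 and 8 without the day 7 b1 library. PSPH was not called without any 1 of the untreated b2 libraries or of day 7 b2 replicates 17, 18 and 19, with adjusted p from 0.056 to 0.103. SHMT2 was not called without untreated b2 replicate 1 (0.0522) or 2 (0.0558). MTHFD1 kept its call in 3 of the 11 fits that left out a library. These fitted values average batches that did not behave alike.

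The fall of PSAT1, PHGDH and SHMT2 differed between the batches. PSAT1 in b1 was 44.4, 40.1 and 40.8 CPM untreated and 45.4 CPM at day 7, whereas in b2 it went from 162, 181 and 163 CPM to 52.7, 57.9, 56.9 and 66.5 CPM. Untreated b1 libraries were thus below the day 7 libraries of b2. PHGDH in b1 was 251, 194 and 221 CPM untreated and 218 CPM at day 7, and in b2 it went from 345.4, 337 and 345.4 CPM to 213, 192, 188 and 197 CPM. The b1 day 7 library lay inside the range of its untreated libraries.

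SHMT2 showed another pattern, since its untreated levels did not differ between batches. They were 199.7, 191 and 185 CPM in b1 and 179, 185 and 196 CPM in b2. At day 7 the b1 library had 209 CPM and the b2 libraries 111, 130, 110.3 and 123 CPM. The highest day 7 value of all was that of b1, above every untreated library, and the b2 values were the lowest.

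In a fit with an interaction of batch and doxycycline, the effect in b2 minus that in b1 was -1.65 ± 0.19 on the log2 scale for PSAT1 (adjusted p = 9.59e-06). It was -0.78 ± 0.14 for SHMT2 (adjusted p = 0.00156) and -0.76 ± 0.14 for PHGDH (adjusted p = 0.00267). These 3 of the 9 were called, where 2.64% of all genes were called in either direction. PSPH (-0.70 ± 0.23, adjusted p = 0.0929) and MTHFD2 (-0.36 ± 0.18, adjusted p = 0.293) were not called. PSPH in b1 was 28.4, 28.5 and 31.3 CPM untreated and 31.9 CPM at day 7, against 30.3, 30.1 and 33.9 CPM and then 18.2, 21.6, 20.6 and 22.3 CPM in b2. The intervals of the difference were -0.59 to 0.09 for MTHFD1L, -0.40 to 0.18 for MTHFD1, -0.34 to 0.27 for SHMT1 and -2.07 to 1.17 for ALDH1L2. The effect in b1 rests on 1 library, which is assumed to vary like the other groups.

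Within b1 the day 7 group is 1 library, so its changes are given as effect sizes without calls. The log2 changes in b1 were 0.12 ± 0.17 for PSAT1, -0.03 ± 0.12 for PHGDH, 0.11 ± 0.19 for PSPH and 0.12 ± 0.12 for SHMT2. Within b2 the same fit gave -1.53 ± 0.09, -0.79 ± 0.08, -0.59 ± 0.12 and -0.66 ± 0.08. ALDH1L2 was 3.43, 4.29 and 5.54 CPM in untreated b1 and 1.59 CPM, from 4 UMIs, at day 7. The b1 change of ALDH1L2, -1.47 ± 0.62, rests on that 1 library. It stood beside -1.92 ± 0.24 in b2, where ALDH1L2 went from 10.4, 13.1 and 8.28 CPM to 3.21, 2.59, 3.14 and 2.45 CPM.

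**Figure D3:**
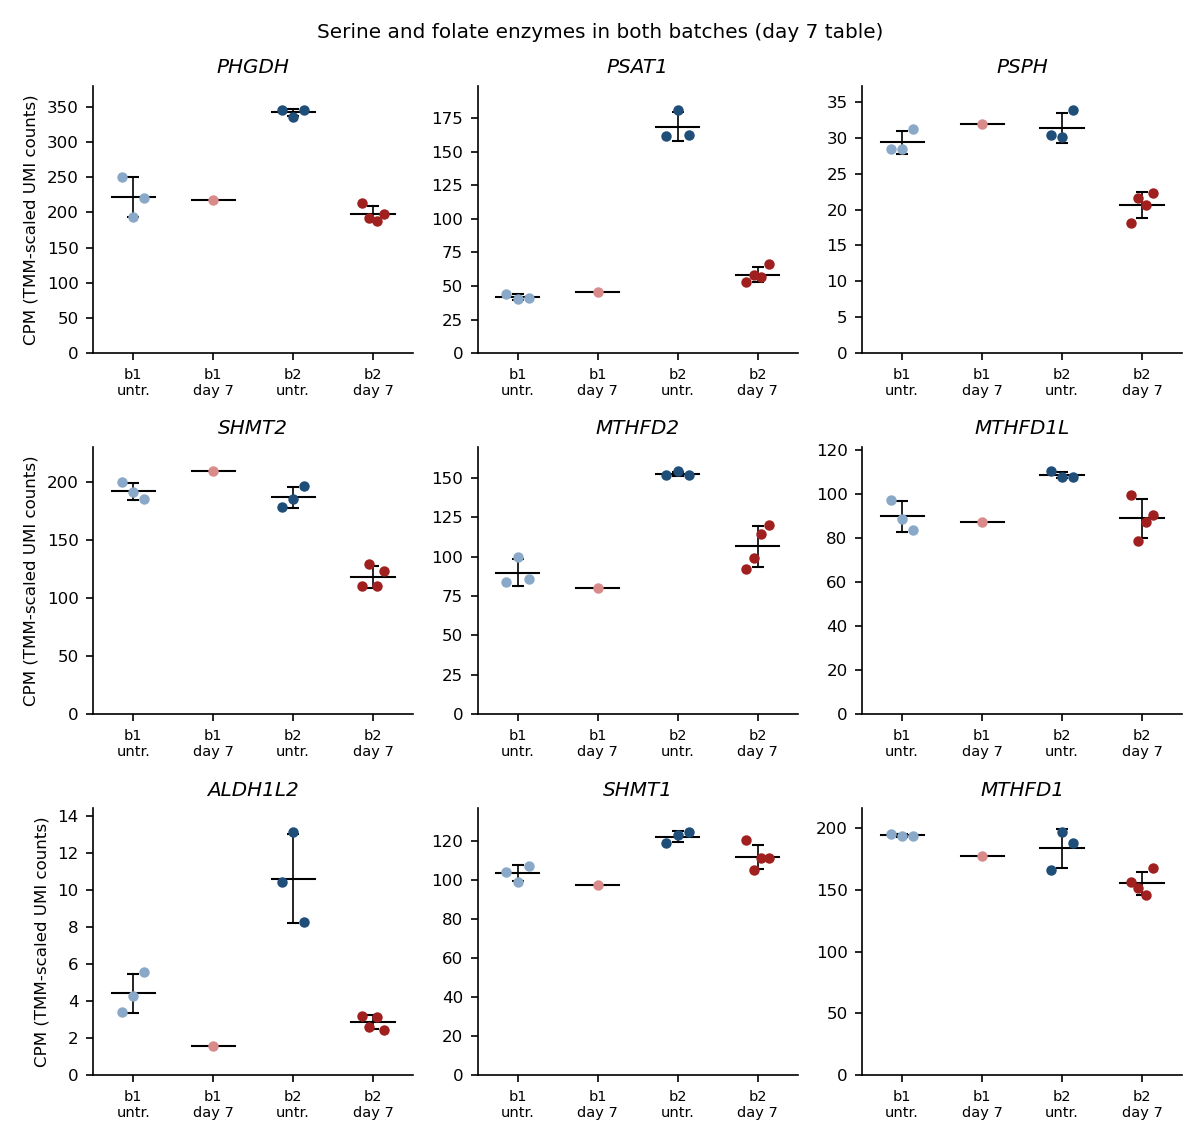
Level of each enzyme in every library of the day 7 table, in CPM on a linear axis from 0: 3 untreated libraries and 1 day 7 library of b1, 3 untreated and 4 day 7 libraries of b2. Points are libraries, lines group means and bars ± 1 SD (none for the single library); for PSAT1 the 4 b1 libraries lie between 40.1 and 45.4 CPM, below all b2 libraries.

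The batches can also be set side by side before induction. Mean levels in untreated b2 over untreated b1 were 4.04 for PSAT1, 2.401 for ALDH1L2, 1.70 for MTHFD2, 1.54 for PHGDH, 1.21 for MTHFD1L and 1.18 for SHMT1, with ranges that did not overlap. The ratios were 1.07 for PSPH, 0.973 for SHMT2 and 0.945 for MTHFD1, with ranges that did. MTHFD2 was 83.8, 99.8 and 85.8 CPM in untreated b1 and 80.1 CPM at day 7, and in b2 it went from 152, 154 and 152 CPM to 92.2, 99.4, 114 and 120.5 CPM. These ratios describe libraries that differ in batch as well, and they were not tested. How many of all genes have untreated ranges apart between the batches was not counted. The ranges therefore do not set these enzymes apart from other genes.

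**Figure D4:**
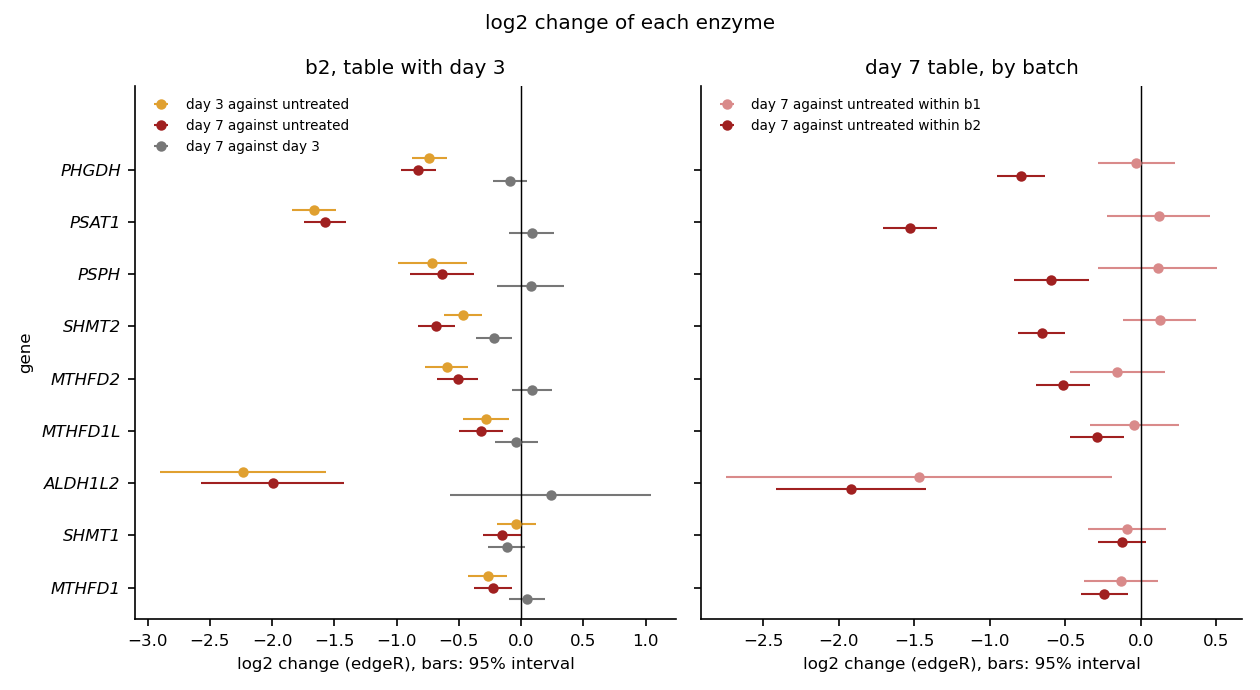
Log2 change of each enzyme from edgeR, with 95% intervals as bars: b2 in the table with day 3 (left) and the day 7 effect within each batch of the day 7 table (right). On the left the day 3 and day 7 points lie close together and those of day 7 against day 3 lie near 0; on the right the b1 points of PSAT1, PHGDH, PSPH and SHMT2 lie near 0 and their b2 points between -1.53 and -0.59.

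The authors' deposited table gives DESeq2 results for the same contrasts, with the sign turned here so that a fall is negative. For day 3 it lists -1.66 for PSAT1 and -0.74 for PHGDH. For day 7 over both batches the authors' deposited table lists -0.99 for PSAT1 (adjusted p = 0.00683), -0.54 for PHGDH (0.000252) and -1.85 for ALDH1L2 (3.23e-07). In that same deposited table of the authors PSPH (0.0671) and MTHFD1 (0.0638) did not pass 0.05 at day 7.

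Several enzymes share their 3′ end with a neighbour, which matters because neither the labels nor the file headers state the strand setting of the counting. ALDH1L2 overlaps C12orf45 and SHMT1 overlaps SMCR8, and neither neighbour was called in any comparison. MTHFD1 overlaps ZBTB25, which changed by -0.59 ± 0.19 at day 7 over both batches (adjusted p = 0.0357) and was not called at day 3. MTHFD2 overlaps AC006030.1 and SLC4A5, and SLC4A5 had 0 to 6 UMIs per library in the day 7 table. MTHFD1L overlaps AL138733.1, and SHMT2 overlaps NDUFA4L2. AC006030.1, AL138733.1 and NDUFA4L2 were not analysed here. Whether such reads entered the enzymes' counts was not tested.

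Genes that supply, carry or use serine were measured in the same libraries. None of the 5 genes that supply 3-phosphoglycerate was called at day 3 (4 had an unadjusted p under 0.05), while PGK1, phosphoglycerate kinase, fell from day 3 to day 7 (-0.35 ± 0.07, adjusted p = 0.00126). Among 7 transporters of serine and glycine, 2 fell at day 3, and 3 fell and 1 rose at day 7 in b2. Of all genes, 1.67% were called lower at day 3, and 7.31% lower and 8.27% higher at day 7 in b2. SLC1A5, a neutral amino acid exchanger, went from 191.6 ± 7.38 CPM (SD, n = 3) to 139 ± 9.21 CPM (SD, n = 4) at day 3. SLC6A9, the glycine transporter GlyT1, was 36.8 ± 2.09 CPM (SD, n = 3) untreated, 26.9 ± 2.82 CPM at day 3 and 14.7 ± 1.96 CPM at day 7 (SD, n = 4 each). It was the 1 transporter called from day 3 to day 7 (-0.90 ± 0.14, adjusted p = 9.3e-05). Both SLC1A5 (-0.77 ± 0.14, adjusted p = 0.00229) and SLC6A9 (-1.55 ± 0.28, adjusted p = 0.0019) differed between the batches in their day 7 effect. SLC38A1, a sodium-coupled neutral amino acid transporter, fell at day 3 from 33.7 ± 1.72 CPM (SD, n = 3) to 21.6 ± 3.73 CPM (SD, n = 4; log2 change -0.66 ± 0.15, adjusted p = 0.00828).

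None of the remaining folate genes was called lower in the table with day 3. Of 11 other folate enzymes and transporters tested in the table with day 3, edgeR called 0 at day 3, with 0 at an unadjusted p under 0.05, and 0 at day 7, with 3. In the day 7 table, where 15 were tested, MTHFD2L, the paralog of MTHFD2, rose (0.43 ± 0.11, adjusted p = 0.01), as did SLC19A1, the reduced folate carrier (0.52 ± 0.12, adjusted p = 0.00591). The mean level of MTHFD2L in b2 was 20.9 CPM untreated and 28.1 CPM at day 7 in that table, but 2.16 and 1.89 CPM in the table with day 3, where it did not pass the filter on low counts. SLC19A1 was 58.6 CPM in the b1 day 7 library against a mean of 31.2 CPM in untreated b1, and at day 7 in b2 of the table with day 3 its change of 0.28 was not called (adjusted p = 0.171). Of the glycine cleavage system 2 genes were tested in each table, GCSH and DLD in the day 7 table and AMT and GCSH in the table with day 3. None of them was called in any comparison by edgeR (1 had an unadjusted p under 0.05 at day 7 in b2). Of 6 genes that use serine for lipids or D-serine, PTDSS1, a phosphatidylserine synthase, rose at day 7 in b2 (0.42 ± 0.09, adjusted p = 0.00112).

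Genes of purine synthesis, the methionine cycle and transsulfuration were also measured. Among 13 purine synthesis genes at day 3, IMPDH1 rose (0.42 ± 0.08, adjusted p = 0.0034) and PRPS2 fell (-0.68 ± 0.17, adjusted p = 0.0235). At day 7, 2 rose and 1 fell in b2, where 8.27% of all genes were called higher and 7.31% lower. Over both batches 3 rose and 1 fell, beside 8.43% and 7.28% of all genes. In b2 of the day 7 table the mean of ADSL went from 162 to 205 CPM and that of PAICS from 278 to 327 CPM. In the methionine cycle, BHMT2, a homocysteine methyltransferase, fell at day 3 from 7.47 ± 2.21 CPM (SD, n = 3) to 2.77 ± 0.53 CPM (SD, n = 4), the only 1 of 9 called. In transsulfuration, CBS, which joins serine to homocysteine, fell at day 3 from 103 ± 5.90 CPM (SD, n = 3) to 57.3 ± 5.21 CPM (SD, n = 4; log2 change -0.85 ± 0.09, adjusted p = 6.52e-07). CTH, the next enzyme, fell at day 7 in b2 (-1.20 ± 0.31, adjusted p = 0.00735).

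Other genes of the amino acid response fell with the serine enzymes. Of 18 such enzymes and carriers tested, 14 fell at day 3, 14 fell at day 7 in b2, 0 rose, and 0 were called from day 3 to day 7 by edgeR (7 had an unadjusted p under 0.05). Of all genes, 1.67% were called lower at day 3 and 7.31% at day 7 in b2. The median log2 change of the 18 at day 3 was -0.58, beside 0.00497 over all genes. ASNS, asparagine synthetase, went from 127 ± 7.73 CPM (SD, n = 3) to 35.1 ± 1.87 CPM at day 3 and 27.8 ± 2.12 CPM at day 7 (SD, n = 4 each). Its log2 change at day 3 was -1.86 ± 0.10. In the day 7 table the b2 means of ASNS were only 1.45 CPM untreated and 0.58 CPM at day 7, from 1 to 8 UMIs per library. Its level thus depends on the table. PCK2, the mitochondrial phosphoenolpyruvate carboxykinase, went from 90.8 ± 3.87 CPM (SD, n = 3) to 32.5 ± 3.99 CPM (SD, n = 4) at day 3. GARS1, the glycyl-tRNA synthetase, fell by 1.00 on the log2 scale at day 3 (SE 0.07, adjusted p = 1.08e-10). This list was chosen with earlier results of these libraries known, so its count is not independent evidence.

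Of 18 regulators on the ATF4 axis tested, 2 fell and 0 rose at day 3 (9 had an unadjusted p under 0.05), and 6 fell and 0 rose at day 7 in b2. Over all genes the shares were 1.67% lower and 1.84% higher at day 3, and 7.31% lower and 8.27% higher at day 7 in b2. The 2 regulators called at day 3 were NUPR1, a stress-induced nuclear protein (-1.82 ± 0.17, adjusted p = 2.96e-08), and TRIB3, a pseudokinase induced by ATF4 (-1.104 ± 0.13, adjusted p = 9.2e-07). ATF4, named for its role and after its values were seen, was 369 ± 4.36 CPM (SD, n = 3) untreated, 327 ± 26.5 CPM at day 3 and 312 ± 4.51 CPM at day 7 (SD, n = 4 each). It was called only at day 7 among these contrasts in b2 (-0.24 ± 0.07, adjusted p = 0.0123). ATF4 (-0.48 ± 0.12, adjusted p = 0.0292), TRIB3 (-1.16 ± 0.23, adjusted p = 0.00602) and PCK2 (-1.84 ± 0.27, adjusted p = 0.000173) were also called for the difference between batches. Of 5 other candidate regulators, MYC rose at day 7 in b2 (0.32 ± 0.08, adjusted p = 0.00426), and 0 were called at day 3 by edgeR (0 at an unadjusted p under 0.05).

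**Figure D5:**
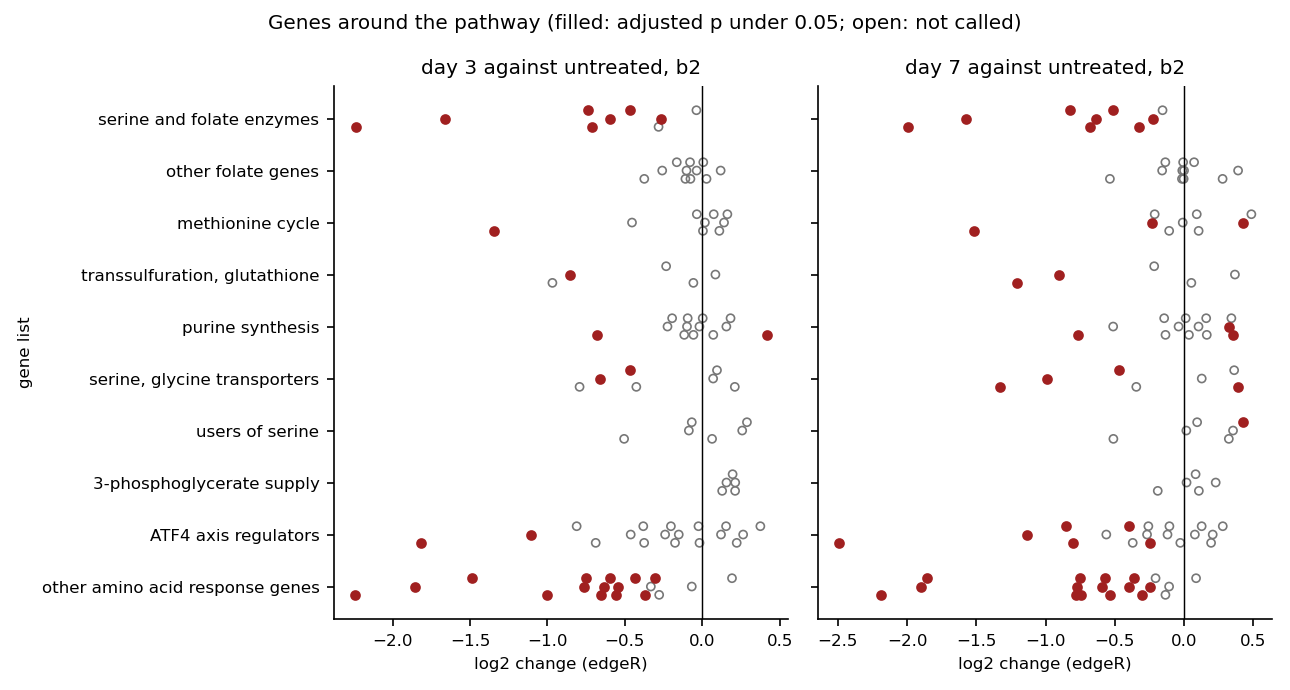
Log2 change at day 3 (left) and day 7 (right) in b2 for the serine and folate enzymes and for 9 other gene lists, 1 point a gene; filled points had an adjusted p under 0.05 in edgeR. Filled points lie left of 0 for the enzymes and the other amino acid response genes. The 11 other folate genes have none, which is near the share over all genes.

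Over the 11 libraries of the table with day 3, the non-member genes whose log2 CPM followed each enzyme most closely were sought among 6266 genes. For PHGDH they were PCK2 (Pearson r of 0.988), ASNS (0.974) and CBS (0.972), and for PSAT1 they were ASNS (0.977), AARS (0.976), the alanyl-tRNA synthetase, and CBS (0.971). For MTHFD2 they included CLDN11 (0.974) and HHIP-AS1 (0.940). For ALDH1L2 they were NUP62 (0.942), CBS (0.937) and TRIB3 (0.932). These values share the same libraries and the same 3 groups and are descriptions only.

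Markers of cell types were measured beside these changes. Of 10 astrocyte markers 7 are listed, and GFAP, AQP4 and SLC1A2, which define mature astrocytes, are not among the genes analysed here. The summed level of the 7 was 8308 to 9829 CPM in untreated b2, 9798 to 10918 CPM at day 3 and 9427 to 11697 CPM at day 7. In the table with day 3, 6 were tested at day 7 in b2, and 2 were called higher and 1 lower. Of all genes, 8.27% were called higher and 7.31% lower there. Mean levels of SOX9 and CD44 rose from 27.1 to 47.8 CPM and from 159 to 250 CPM, and that of ALDOC fell from 61.7 to 38.2 CPM. These genes are a small part of the sum. Of 8 fibroblast and pericyte markers 5 are listed, without DCN, LUM or RGS5. In the table with day 3 the 5 summed to 1311 to 1381, 1115 to 1154 and 854 to 1083 CPM in untreated b2, at day 3 and at day 7. Among them, COL1A2 had means of 364, 217 and 95.1 CPM, and THY1 of 609, 534 and 519 CPM. In the day 7 table the sum of the 5 was 1116 to 1216 CPM in untreated b1 and 1084 CPM in its day 7 library, against 902 to 954 CPM in untreated b2 and 503 to 707 CPM at day 7 in b2. For 3 of 6 neuron markers in the table with day 3 the sum was 78.2 to 91.8, 119.7 to 134 and 107 to 169 CPM, with RBFOX3, MAP2 and STMN2 not listed. Most of it was TUBB3, with means of 72.99, 119.1 and 116.1 CPM. The day 7 table lists MAP2 but not TUBB3. There the sum of SYT1, SNAP25 and MAP2 in b2 was 14.9 to 17.2 CPM untreated and 11.5 to 14.7 CPM at day 7. For 2 of 6 endothelial markers in the table with day 3 the sum was 14.3 to 19.6, 5.07 to 13.5 and 7.29 to 10.6 CPM. For MBP, the 1 oligodendrocyte marker of 6, the levels in that table were 14.5 to 15.2, 9.50 to 14.6 and 9.97 to 11.1 CPM. CSF1R, the 1 microglial marker of 6, was called higher at day 7 over both batches (log2 change 1.51 ± 0.41, adjusted p = 0.0144). It was 0.182 to 0.971 CPM in untreated b2 and 1.44 to 2.45 CPM at day 7 in b2, and 1.33 to 3.19 CPM in untreated b1 and 3.98 CPM in its day 7 library. These levels rest on 1 to 4, 5 to 14, 4 to 13 and 10 UMIs per library, in the same order. In the table with day 3 CSF1R did not pass the filter on low counts. The part of these shifts in the enzymes' changes was not tested.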

How the data were processed

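The authors deposited whole-number UMI counts per gene and library, and the submitters' processing notes name bcl2fastq, cutadapt, HTSeq, STAR 2.4.2a and the build hg38. The log2 fold changes and adjusted p-values deposited by the authors came from DESeq2 and are quoted only where named. Table columns were matched to samples by label; 2 untreated columns of the table with day 3 have names that fit samples of either batch and were taken as untreated b2 replicates, and 55 other per-sample columns were not used. Both tables list only genes with at least 6 counts in some library. Each table was fitted with edgeR 4.0.16 (TMM, filterByExpr on the design, robust quasi-likelihood test, Benjamini-Hochberg over 12449 or 10586 genes), tested on simulated data first. The day 7 fit had batch as a term, and the batch difference was its interaction with doxycycline. Older symbols were matched through gene-name tables. The 9 enzymes and all lists were chosen with earlier results of these data known. Genes named were all 9 enzymes, IDH1, up to 4 called genes of each list by p, and 3 genes of like pattern per enzyme for 4 enzymes (1 such gene is not reported here). Library pairs of a group differed beyond counting noise (chi-square per degree of freedom 1.54 to 6.40 over 27 pairs). DESeq2 1.42.0, limma-voom 3.58.1, other scalings and filters, no batch term and leaving out each library were alternatives.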

Additional observations from a re-analysis of the deposited data

Results flagged for a closer look

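PHGDH in day 7 b2 replicate 17 stood at 257.032 CPM in the table with day 3, away from the other 3 libraries at 222.8 to 226.1 CPM, a gap of 0.902 of the group's range. It was the only one of 27 groups of 4 libraries checked in this way, and chance alone sets a library apart in about 5% of such groups. Without it the day 7 fall of PHGDH in b2 was -0.89 on the log2 scale.

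The day 7 effect differed between b2 and b1, by a test of the difference, by -0.76 for PHGDH, -1.65 for PSAT1 and -0.78 for SHMT2 on the log2 scale. All 3 were called in each of the 10 fits that left out 1 library other than the single day 7 library of b1, and with DESeq2 and limma-voom.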

How the results depend on the processing

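No paired analysis was possible because the groups tested against each other share fewer than 2 replicate numbers (untreated b1 and b2, which share 2, were not tested against each other). With no batch term, 323 genes (1955 with it) and 1 of the 9 enzymes (7 with it) were called at day 7, that 1 being ALDH1L2. Day 7 in b1 is 1 library. The counts given next for b1 are therefore not read as calls, and 0 enzymes does not show that none changed there. The effect within b1, added after seeing the data, gave 935 genes, 0 enzymes and changes above 0 for PSAT1 (0.12), PSPH (0.11) and SHMT2 (0.12). For the batch difference limma-voom called 210 genes (329 in edgeR), and scaling by library size alone turned SHMT1 to 0.0447 and IDH1 to 0.00446, neither called.

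Leaving out 1 library gave 1405 to 1970 genes and 4 to 8 enzymes at day 7, 191 to 578 genes and 6 to 8 enzymes at day 3, and 1089 to 1915 genes and 7 to 8 enzymes at day 7 in the table with day 3. It gave 387 to 645 genes and 0 to 1 enzymes between day 3 and day 7, and 197 to 684 genes and 3 enzymes for the batch difference. The highest counts of the last 4 of these came without day 7 b2 replicate 17 for genes, and the lowest at day 3 without untreated b2 replicate 2. From day 3 to day 7 the uncalled changes of MTHFD1L (-0.10 to 0.0167), ALDH1L2 (-0.12 to 0.48) and IDH1 (-0.0436 to 0.11) took either sign, as did the batch difference of IDH1 (-0.20 to 0.0241). DESeq2 called 1156 genes at day 7 in the table with day 3 (1649 in edgeR). Scaling by library size alone moved the split of higher to lower calls from 1049 and 906 to 667 and 1429 at day 7, from 195 and 177 to 129 and 240 at day 3, from 875 and 774 to 684 and 981 at day 7 in the table with day 3, and from 189 and 140 to 280 and 100 for the batch difference. At day 3, 5 enzymes (PSAT1, PHGDH, PSPH, SHMT2 and MTHFD2) were called in every alternative run. The cause of these shifts was not tested. ALDH1L2 is limited by its 2 to 7 UMIs per library at day 3.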
